A study of Mus musculus with 6 samples.

Results

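The thrombospondins are secreted glycoproteins of the extracellular matrix. The genes Thbs1, Thbs2, Thbs3 and Thbs4 were described here, and all 4 were among the 19938 genes measured. Each was read by 1 probe set that the platform annotation assigns to that gene alone. Of several such probe sets, the one with the highest mean would have been taken, but no member had more than 1, and none was also read by a probe set naming several genes.

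Expression was measured on Affymetrix arrays in HM1 cells, a line of mouse embryonic stem (ES) cells, with 1 array per sample. The control group (3 arrays) had received the empty plasmid pCAGIP.puro, and the Prmt6 overexpression group (3 arrays) the same plasmid carrying mouse Prmt6, the gene of a nuclear arginine methyltransferase. Both groups went through transfection and 3 days in 1 μg/ml puromycin, in medium with 15% serum and LIF, the cytokine that keeps mouse ES cells undifferentiated. They were selected populations and not described as clones, and the labels do not say whether replicates were separate cultures, so the p-values describe sample-to-sample spread that could be technical alone. Values are log2 signals from robust multi-array average (RMA) processing, so that 1 unit is a doubling. A difference is the mean of the 3 overexpression arrays minus the mean of the 3 control arrays, tested with limma across all genes, and "passed" means a Benjamini-Hochberg adjusted p under 0.05.

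Thrombospondins bind cells and other matrix proteins at once. Thbs1 and Thbs2 encode the subgroup that assembles as trimers. Their type 1 repeats bind the receptor CD36 and inhibit the growth of blood vessels, and the thrombospondin-1 protein can also release TGF-beta from its latent complex. Thbs3, Thbs4 and their relative Comp encode the pentameric subgroup, which lacks type 1 repeats and is best known from cartilage, tendon and muscle. In human cells, PRMT6 has been reported to repress the gene of thrombospondin-1.

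The arrays correlated at 0.991 to 0.992 between controls, 0.986 to 0.990 between overexpression arrays and 0.980 to 0.987 between the groups (Pearson, across probe sets, which are not independent replicates). Array medians lay between 5.54 and 5.62. Prmt6 itself read 6.84, 6.58 and 7.12 in control and 7.32, 7.40 and 7.33 in overexpression, a difference of 0.50 ± 0.13 (SE, adjusted p = 0.0406, limma). That call ended when any 1 array other than control replicate 3 was left out (adjusted p from 0.0788 to 0.119) and under quantile normalization (0.0633). Where the Prmt6 probe set lies relative to the insert of the plasmid was not analysed here. ES cell markers, among them Pou5f1 and Nanog, had a mean level of 10.48 to 10.51 in control and 10.40 to 10.44 in overexpression over 10 genes.

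The 4 members went different ways. Thbs1 rose 6.20-fold, Thbs3 fell to 0.783 of its control level, and Thbs2 and Thbs4 did not pass. So 1 of 4 members was called higher, where 7.05% of all genes were, and 1 of 4 lower, where 3.25% were (10.3% in either direction). Over all genes 68.5% of the calls were rises, a share that became 80.4% with arrays centred on their medians and 50.4% under quantile normalization. In 2 of 4 members all overexpression arrays lay above all control arrays, against 17.0% of all genes, and in 1 of 4 below them, against 12.7%. With 4 members these shares describe the genes and set nothing apart about the family. In bulk RNA, a gene made by fewer cells and a gene with less RNA per cell cannot be told apart.

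**Figure D1:**
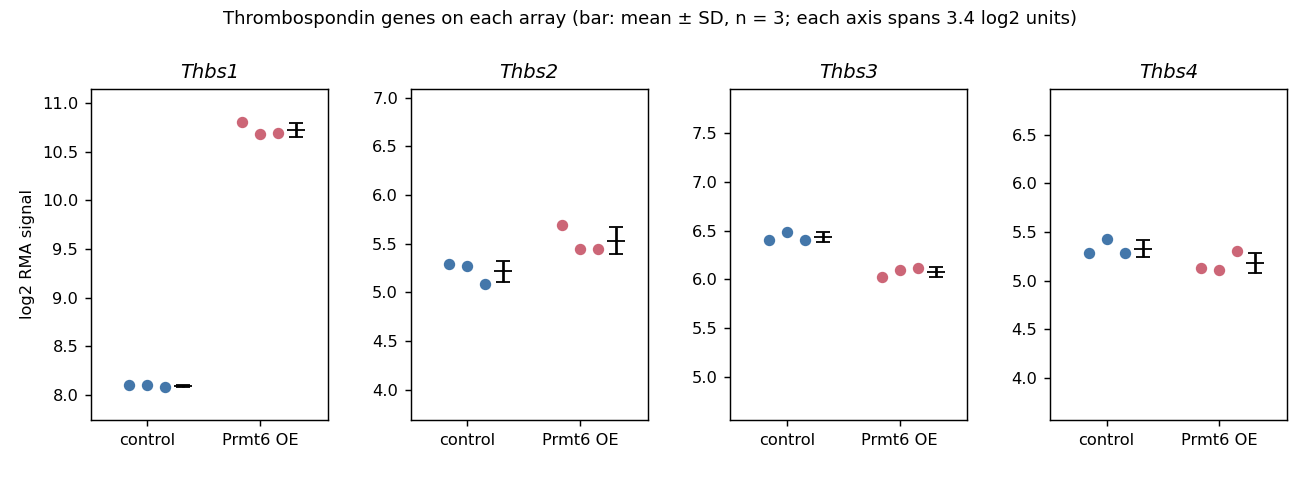
Log2 RMA signal of each thrombospondin gene on each array, by group (Prmt6 OE is Prmt6 overexpression), with the mean and SD of 3 arrays beside the points. All axes cover the same range in log2 units. Thbs1 moves from about 8.10 to between 10.68 and 10.81, Thbs3 lies lower in overexpression, Thbs2 slightly higher, and the Thbs4 groups overlap.

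Thbs1, the inhibitor of vessel growth, read 8.10, 8.10 and 8.08 in control and 10.81, 10.68 and 10.69 in overexpression. The groups were far apart, with a gap of 2.58 between the highest control and the lowest overexpression array. The difference was 2.63 ± 0.07 (SE, n = 3 per group, 95% confidence interval 2.47 to 2.80, adjusted p = 4.27e-07, limma). The direction is opposite to the repression reported in human cells, but the cells and conditions of that report were not compared with these. Of all 19938 genes, Thbs1 had the 12th largest difference upward and the 6th smallest p. Its control SD of 0.012 was below the median SD of all genes in control (0.082), and its overexpression SD of 0.072 was below the median there (0.115).

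Thbs2, the other trimeric member, read 5.29, 5.27 and 5.09 in control and 5.69, 5.45 and 5.45 in overexpression. The groups did not overlap, but the gap between them was 0.16, close to the SD of 0.11 in control and 0.14 in overexpression. The difference was 0.31 ± 0.10 (95% interval 0.09 to 0.53) and did not pass (adjusted p = 0.0798). It passed when genes under the 30th percentile of the gene means were left out (adjusted p = 0.0369) and when arrays were centred on their medians (0.36, adjusted p = 0.0495). Its adjusted p lay between 0.0369 and 0.241 over all alternatives.

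Thbs3, of the pentameric subgroup, read 6.40, 6.49 and 6.40 in control and 6.02, 6.09 and 6.12 in overexpression. All overexpression arrays lay below all control arrays, with a gap of 0.28. It fell by 0.35 ± 0.07 (95% interval of the difference -0.52 to -0.19, adjusted p = 0.0155, limma). The call ended without control replicate 1 (adjusted p = 0.0563), 2 (0.0730) or 3 (0.0526), with differences from -0.32 to -0.38 over the leave-one-out fits.

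Thbs4, a thrombospondin of tendon and muscle, read 5.28, 5.43 and 5.28 in control and 5.13, 5.11 and 5.30 in overexpression. The highest overexpression array lay above the 2 lowest control arrays, so the groups overlapped. The difference was -0.15 ± 0.08 (95% interval -0.34 to 0.04, adjusted p = 0.325). Comp, the cartilage relative that shares the pentameric form, was at -0.16 ± 0.08 (adjusted p = 0.297), with 5.44, 5.30 and 5.22 in control and 5.17, 5.09 and 5.23 in overexpression.

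The differences between members were tested per array for 6 pairs, with an exact two-sided permutation test over the arrays, whose smallest possible p is 0.10 with 3 against 3. In each of the 6 pairs the within-array difference separated the groups completely, and each pair gave this smallest p (exact p = 0.10, adjusted over the pairs 0.10), so no pair could pass. The change of Thbs1 exceeded that of Thbs2 by 2.32, that of Thbs4 by 2.78 and that of Thbs3 by 2.99. The change of Thbs2 exceeded that of Thbs3 by 0.67 and that of Thbs4 by 0.46. Between the pentameric members Thbs3 and Thbs4 the changes differed by -0.20, the smallest difference among the pairs.

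**Figure D2:**
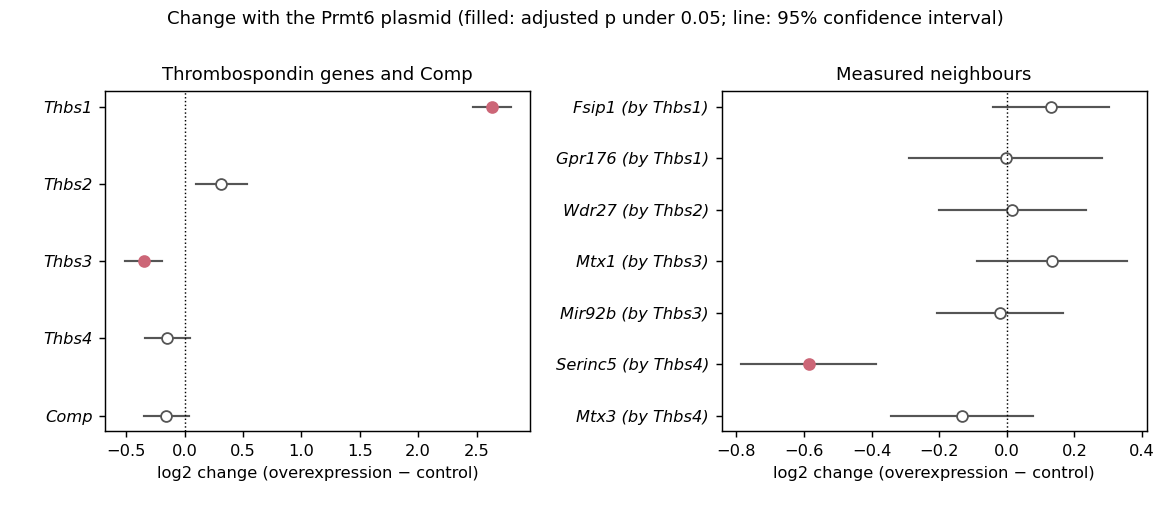
Left, log2 change (overexpression minus control) of the thrombospondin genes and Comp. Right, on its own scale, that of the measured genes beside them in the genome, with the member each lies beside. Lines are 95% confidence intervals, and filled points have adjusted p under 0.05. Thbs1 stands at 2.63, Thbs3 at -0.35 and Serinc5 at -0.59, and the other points are open.

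The genes on either side of each member were taken from the RefSeq annotation (GRCm38.p6), 2 per side. Of these 16 genes, 7 were measured on a probe set of their own, and 1 of the 7 passed, where 10.3% of all genes passed in either direction. Beside Thbs1, the gene Fsip1 was at 0.13 ± 0.08 and the orphan receptor gene Gpr176 at -0.0033 ± 0.12, neither passing (adjusted p = 0.341 and 0.989). Both lie on the side of higher coordinates. Neither gene on the other side was measured, among them the nearest, Gm13986, 674 bases away. Fsip1 and Gpr176 were also dim, both under the 30th percentile of the gene means. The absence of a call in these 2 genes therefore says little about the region around Thbs1. Serinc5, a membrane protein gene beside Thbs4, fell from 8.40, 8.48 and 8.53 to 8.03, 7.77 and 7.85 (difference -0.59 ± 0.09, adjusted p = 0.00377). Mtx3, a metaxin gene on the other side of Thbs4, was at -0.13 ± 0.09 (adjusted p = 0.432), and Wdr27 beside Thbs2 at 0.017 ± 0.095 (0.944). Mir92b, a microRNA gene just past Thbs3, was at -0.02 ± 0.08 (0.917).

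Thbs3 lies head to head with Mtx1, which encodes a protein of mitochondrial import, so that both are transcribed away from a short shared stretch. Mtx1 read 8.46, 8.67 and 8.70 in control and 8.65, 8.69 and 8.89 in overexpression, with overlapping groups (difference 0.13 ± 0.10, adjusted p = 0.463). Per array, the change of Thbs3 lay 0.49 below that of Mtx1, with the smallest p the exact permutation test allows (p = 0.10, two-sided, 20 splits), in a test added after the values were seen. The 250 bases before the annotated starts of Thbs3 and Mtx1 are printed here as the neighbouring starts of the head-to-head pair, and those of Thbs2 and Thbs4 as the other members in the RefSeq promoter table (GRCm38.p6). They lie at chr3:89214930-89215179 on the plus strand (Thbs3), chr3:89213908-89214157 on the minus strand (Mtx1), chr17:14694263-14694512 on the minus strand (Thbs2) and chr13:92794819-92795068 on the minus strand (Thbs4). Capitals mark matches, on either strand, to these letters, each written 5′ to 3′: TATAAA for the TATA box, GGGCGG for the GC box, CCAAT for the box of that name, TGANTCA for the AP-1 site and GGAATG for the TEAD site.
Thbs3: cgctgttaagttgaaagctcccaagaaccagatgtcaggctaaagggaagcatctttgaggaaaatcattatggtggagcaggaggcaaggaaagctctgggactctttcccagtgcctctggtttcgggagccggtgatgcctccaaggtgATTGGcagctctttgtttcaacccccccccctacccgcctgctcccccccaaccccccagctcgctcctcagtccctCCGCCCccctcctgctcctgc
Mtx1: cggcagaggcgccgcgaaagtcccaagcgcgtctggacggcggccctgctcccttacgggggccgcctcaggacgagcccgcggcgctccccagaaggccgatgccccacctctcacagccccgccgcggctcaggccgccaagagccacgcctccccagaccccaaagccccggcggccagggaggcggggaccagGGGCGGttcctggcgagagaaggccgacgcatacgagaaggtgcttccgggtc
Thbs2: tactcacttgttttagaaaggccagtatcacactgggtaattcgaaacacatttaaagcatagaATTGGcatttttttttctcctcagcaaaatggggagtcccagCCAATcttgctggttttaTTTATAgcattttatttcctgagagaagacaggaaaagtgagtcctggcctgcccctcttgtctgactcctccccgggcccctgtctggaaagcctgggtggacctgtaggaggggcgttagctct
Thbs4: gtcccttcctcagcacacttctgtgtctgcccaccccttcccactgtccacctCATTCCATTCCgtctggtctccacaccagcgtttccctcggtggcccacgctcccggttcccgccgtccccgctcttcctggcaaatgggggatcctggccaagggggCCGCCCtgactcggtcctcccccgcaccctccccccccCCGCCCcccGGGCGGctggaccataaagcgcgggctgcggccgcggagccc

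Thbs1 had no entry in the promoter table, so its window is not shown. The 4 windows shown differ in their matches. That of Thbs3 holds 1 GC box 21 to 16 bases before the start and 1 CCAAT box 98 to 94 bases before it, while that of Mtx1 holds 1 GC box and no CCAAT box. The Thbs2 window holds the only TATA-box match of the 4, on the opposite strand 126 to 121 bases before the start, and 2 CCAAT matches. The Thbs4 window holds 3 GC boxes and 2 TEAD-site matches on the opposite strand, which overlap each other by 1 base. The TGANTCA letters are in none of the 4 windows. Over the 27025 promoters of the table, one per gene, the same letters occur in 13% (TATA box), 32.9% (GC box), 34.5% (CCAAT box), 6.87% (AP-1 site) and 12.6% (TEAD site) of windows of this length. GC content was 58.8% for Thbs3, 74.0% for Mtx1, 46.8% for Thbs2 and 70.8% for Thbs4, against a median of 52.0%. A match describes letters and does not show a site in use.

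The profiles most like that of Thbs1 were ranked by the root mean square difference over the 6 arrays, after taking each gene minus its control mean. The 5 nearest genes were Cryab, a small heat shock protein (0.065), the simple-epithelial keratin gene Krt19 (0.071), the phospholipid-binding annexin gene Anxa2 (0.073), the mitochondrial carrier gene Slc25a24 (0.10) and the protease gene Prss23 (0.14). Cryab, the nearest, read 6.43, 6.38 and 6.52 in control and 9.17, 8.93 and 9.0 in overexpression. For Thbs3 the nearest were the adhesion receptor gene Icam1 (0.024), Carmil2, a regulator of actin capping (0.028), Echdc3 (0.033), Adpgk, a glucokinase that uses ADP (0.033), and Fam13c (0.033). Icam1 read 8.05, 8.15 and 8.02 in control and 7.69, 7.69 and 7.76 in overexpression. These likenesses rest on 2 groups of 3 arrays and describe these arrays only.

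The receptors that bind thrombospondins were largely higher with the Prmt6 plasmid. Of 18 genes on the list, all measured, 11 rose, 0 fell and 7 did not pass, a share of 61.1% higher against 7.05% of all genes. The median difference was 0.49, against 0.00 over all genes. This list and those below were chosen with earlier results of these data known, so their shares are descriptions and not tests. Among the integrin chains, Itga3, whose product pairs with that of Itgb1 and binds the thrombospondin-1 amino-terminal region, rose the most. It read 7.48, 7.59 and 7.46 in control and 9.08, 8.87 and 8.93 in overexpression (1.45 ± 0.08, adjusted p = 1.56e-05, limma). Itgav, the chain that recognises the RGD sequence with Itgb3 or Itgb5, rose by 1.07 ± 0.07 from 7.60, 7.53 and 7.56 to 8.66, 8.62 and 8.63. Its partners Itgb5 and Itgb3 rose by 0.68 and 0.52, and the common partner Itgb1 by 0.83 ± 0.09. The laminin-receptor chain Itga6 and the fibronectin-receptor chain Itga5 rose by 0.55 and 0.67. The groups were apart upward in the 11 genes that rose and downward in 0 of the 18, against 17.0% and 12.7% of all genes. Genes called with 3 against 3 arrays tend to have groups apart, so this adds little to the calls. The Itgb3 call ended without control replicate 1 (adjusted p = 0.0913) or 3 (0.0761) or overexpression replicate 2 (0.0847) or 3 (0.0621).

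Outside the integrins, Cd47, the receptor of the thrombospondin carboxy-terminal domain, read 6.71, 6.58 and 6.74 in control and 7.17, 7.23 and 7.13 in overexpression. It rose by 0.50 ± 0.08 (adjusted p = 0.00407) on its brightest probe set, and by 0.69 when its probe sets were averaged. Lrp1, the endocytic receptor that clears thrombospondins, rose by 0.48 ± 0.08 and the syndecan gene Sdc3 by 0.63 ± 0.11. Scarb1, a scavenger receptor related to CD36, rose by 0.45 ± 0.08. The receptor of the type 1 repeats went otherwise: Cd36 read 2.87, 2.70 and 2.66 in control and 2.74, 2.85 and 2.99 in overexpression. The Cd36 groups overlapped, all 6 values lay below the lower quartile of their arrays (4.21 to 4.30), and its difference of 0.12 ± 0.09 did not pass (adjusted p = 0.502). Calr, whose product forms a receptor with that of Lrp1, was at 0.073 ± 0.069, and Cacna2d1, a calcium channel subunit that binds thrombospondins at synapses, at 0.16 ± 0.17. The heparan sulfate carriers Sdc1 and Sdc4 were at 0.22 and -0.17, and the integrin chains Itga4 and Itga9 at 0.16 and 0.033, all without passing.

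**Figure D3:**
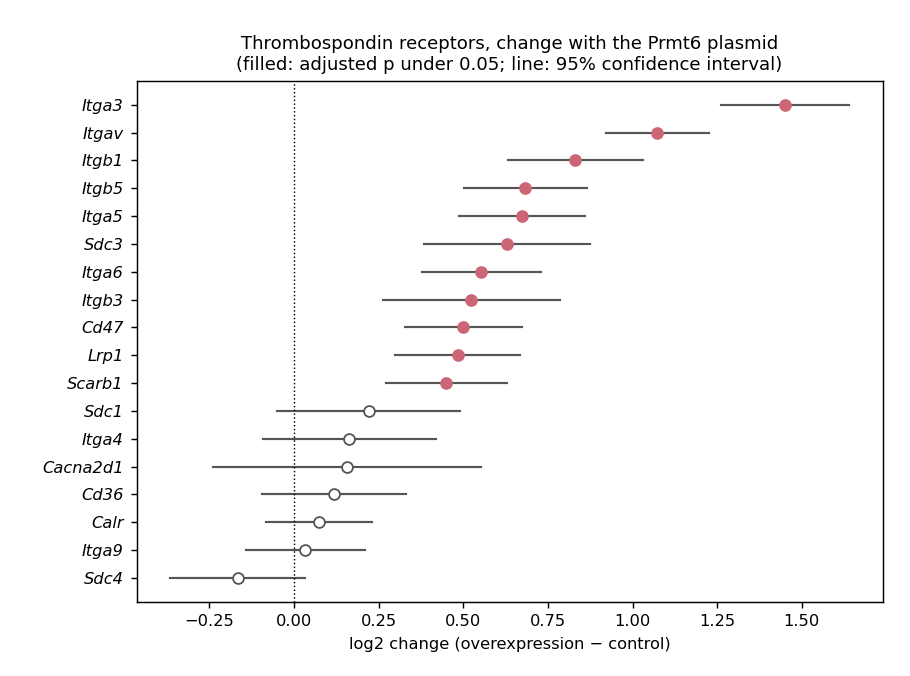
Log2 change (overexpression minus control) of the 18 genes on the receptor list, with 95% confidence intervals. Filled points have adjusted p under 0.05. The 11 filled points run from 0.45 (Scarb1) to 1.45 (Itga3), and Cd36, Calr, Cacna2d1 and the other 4 open points lie between -0.17 and 0.22.

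The ligands and carriers of TGF-beta, the growth factor that thrombospondin-1 can release, were in part higher. Of 9 measured genes 3 were called higher, 0 were called lower and 6 did not pass (33.3% higher, against 7.05% of all genes, median difference 0.34). The ligand gene Tgfb2 read 5.09, 5.07 and 4.53 in control and 6.36, 6.28 and 6.48 in overexpression, and rose 2.78-fold (1.48 ± 0.15, adjusted p = 0.000423). Ltbp1, which ties latent TGF-beta to the matrix, rose 2.27-fold from 6.02, 5.99 and 6.05 to 7.26, 7.23 and 7.12. Tgfb1 read 5.85, 5.89 and 5.51 in control and 6.31, 6.21 and 6.11 in overexpression (0.46 ± 0.11, adjusted p = 0.0365). The Tgfb1 call ended without control replicate 1 (0.0684) or 3 (0.0899) and without overexpression replicate 1 (0.100) or 2 (0.101). Tgfb3 and Lrrc32, a cell-surface holder of latent TGF-beta, were at 0.37 and 0.34 without passing (adjusted p = 0.0608 and 0.0599), and Ltbp4 was at -0.25 (0.0722). With arrays centred on medians or under quantile normalization, 5 genes of this list passed upward.

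Among receptors and response genes of TGF-beta, 4 of 12 measured genes were called higher, 1 lower and the remaining 7 neither (33.3% higher and 8.33% lower, against 7.05% and 3.25% of all genes, median difference 0.18). The matrix protein gene Tgfbi read 5.97, 6.06 and 5.71 in control and 6.83, 6.63 and 6.56 in overexpression, a rise of 0.76 ± 0.11 (adjusted p = 0.00353). The feedback inhibitor Pmepa1 rose by 0.69 ± 0.08, the receptor gene Tgfbr2 by 0.62 ± 0.12 and the signal transducer Smad3 by 0.52 ± 0.07. The coreceptor gene Eng, also a marker of endothelium, fell by 0.51 ± 0.09 (adjusted p = 0.00812). Other response genes did not pass, with Smad7, an inhibitor of the pathway, at 0.27 ± 0.08 (adjusted p = 0.0844), Ccn2 at 0.23 ± 0.07 (0.0792) and Skil, a transcriptional repressor, at -0.20 ± 0.08 (0.165). These values lie on both sides of 0.

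Other matricellular proteins, the class of signalling matrix proteins to which thrombospondins belong, were in part higher. Of 16 measured genes 4 were called higher, 0 were called lower and 12 did not pass (25% higher, against 7.05% of all genes, median difference 0.037). Ccn4, a Wnt-induced secreted protein gene, read 5.26, 5.12 and 5.28 in control and 7.30, 7.02 and 7.14 in overexpression, a 3.82-fold rise (1.93 ± 0.09, adjusted p = 6.98e-06). Ccn1, whose product binds integrins, rose by 1.35 ± 0.08 from 8.45, 8.63 and 8.59 to 9.87, 9.85 and 9.99. Sparc, a collagen-binding glycoprotein gene, rose by 1.28 ± 0.07, and Tnc, which encodes tenascin C, by 0.95 ± 0.10. The groups were apart upward in 6 of the 16 genes, these 4 included, and downward in 3, against 17.0% and 12.7% of all genes. The largest fall on the list was that of Tnxb, from 4.86, 4.87 and 4.87 to 4.36, 4.16 and 4.7. Its groups were apart, but its difference of -0.46 ± 0.13 did not pass (adjusted p = 0.0561). Ccn3 and Ccn5 of the same family as Ccn1 were at -0.13 and -0.18, Postn at 0.22 and Smoc1 at -0.32, none passing. Smoc1 passed downward under several alternatives, among them quantile normalization (adjusted p = 0.0434).

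Among matrix proteins and proteases that bind thrombospondins, 10 of 21 measured genes were called higher, 0 lower and the remaining 11 neither (47.6% higher, against 7.05% of all genes, median difference 0.27). Timp3, a matrix-bound inhibitor of metalloproteinases, read 4.86, 5.00 and 4.75 in control and 7.21, 7.13 and 7.0 in overexpression, a 4.73-fold rise (2.24 ± 0.09, adjusted p = 2.92e-06). Bmp1, the procollagen C-proteinase gene, rose 3.62-fold from 6.55, 6.65 and 6.55 to 8.34, 8.50 and 8.48. Fn1, the gene of fibronectin, rose by 0.99 ± 0.07, Col1a1 by 1.34 ± 0.12 and the gelatinase gene Mmp2, whose product thrombospondins carry to uptake by LRP1, by 0.53 ± 0.08. Mmp9, the other gelatinase, was at 0.15 ± 0.11 without passing. The smaller rises of Hspg2, Col5a1, Fbn2 and Col3a1 (0.27 to 0.44) each ended in several leave-one-out fits, and the count of the list was 6 without control replicate 1, control replicate 3 or overexpression replicate 3.

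**Figure D4:**
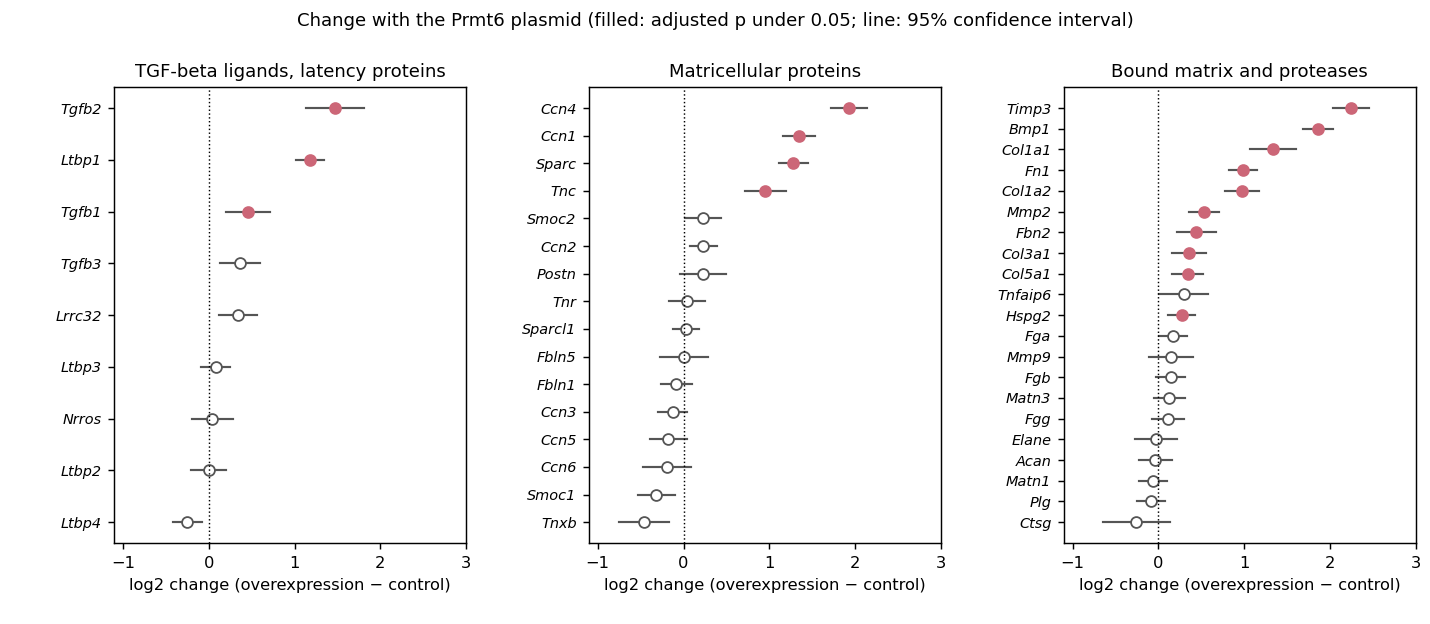
Log2 change (overexpression minus control) of TGF-beta ligands and latency proteins, of matricellular proteins and of matrix proteins and proteases known to bind thrombospondins, on 1 scale, with 95% confidence intervals. Filled points have adjusted p under 0.05. The filled points, 3 of 9, 4 of 16 and 10 of 21, all lie above 0.

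Proteins that only share the type 1 repeat with Thbs1 and Thbs2 gave counts near the background. Of 45 measured genes, 3 rose (6.67%, against 7.05% of all genes), 0 fell and the remaining 42 were not called, and the median difference was -0.04. The netrin receptor gene Unc5b rose 2.60-fold, from 6.71, 6.86 and 6.75 to 8.21, 8.12 and 8.13 (1.38 ± 0.07, adjusted p = 1.12e-05). The proteoglycan-cleaving proteases Adamts1 and Adamts5 rose by 0.62 ± 0.10 and 0.71 ± 0.17 (adjusted p = 0.00670 and 0.0361). The Adamts5 call ended without control replicate 1 (0.0522) and without overexpression replicate 1 (0.112) or 2 (0.103). Adamts5 was also dim, under the 30th percentile of the gene means.

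Regulators of blood vessel growth, the process that thrombospondin-1 inhibits, held calls in both directions. Of 20 measured genes 4 were called higher, 2 were called lower and 14 did not pass (median difference 0.047), where 7.05% of all genes were higher and 3.25% lower. Flt1, a VEGF receptor gene, read 5.13, 5.51 and 5.70 in control and 6.76, 6.58 and 6.67 in overexpression, and rose 2.33-fold (adjusted p = 0.000829). The VEGF coreceptor genes Nrp1 and Nrp2 rose by 0.82 and 0.60 and the ligand gene Pgf by 0.57. The angiopoietin receptor gene Tek fell from 7.28, 7.22 and 7.33 to 6.56, 6.63 and 6.55 (-0.70 ± 0.07), and the ligand gene Vegfc fell by 0.48 ± 0.07. Vegfa was at 0.093 ± 0.074 (adjusted p = 0.497) and the main VEGF receptor gene Kdr at -0.14 ± 0.08 (0.317), neither passing.

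Markers of other cell types that make or carry thrombospondins were read in the same arrays, and their counts stand beside 7.05% of all genes called higher and 3.25% lower. Of 12 fibroblast markers 6 rose and 0 fell, their mean level was 5.04 to 5.12 in control and 5.40 to 5.49 in overexpression, and 3 of the rises (Col1a1, Col1a2 and Col3a1) are also on the list of bound matrix. The fibroblast proteoglycan gene Lum read 2.48 to 2.74 in control and 2.54 to 2.72 in overexpression, below the lower quartile of every array, and Thy1 was at 0.043 ± 0.094. Dcn, among the 6 fibroblast rises, was also dim, under the 30th percentile of the gene means. It read 3.75, 3.98 and 3.76 in control, below the lower quartile of those arrays, and 4.26, 4.1 and 4.44 in overexpression. Of the 6 fibroblast rises, 2 calls held when control replicate 1 was left out and 3 when control replicate 3 was. Of 9 endothelial markers 0 rose and 2 fell (Tek and Eng), with means of 5.67 to 5.72 and 5.47 to 5.56. Of 4 measured megakaryocyte and platelet markers, Ppbp rose (1.79 ± 0.24) and 3 did not pass, with the platelet factor gene Pf4 at 2.84 to 2.90 in control and 2.75 to 3.05 in overexpression. Of 7 macrophage markers 2 rose, Cd68 by 0.39 and Csf1r by 0.36. The Csf1r call ended without any 1 array other than overexpression replicate 2 (adjusted p from 0.0845 to 0.125). The other 5 macrophage markers did not pass and had negative differences, down to -0.15 (Adgre1). Of 10 endoderm markers 4 rose, led by Cubn (0.94 ± 0.11), and 6 did not pass. Differences were negative in 4 of the 10, down to -0.15 (Amn). The call of Sox17, among the 4 endoderm rises, ended without control replicate 1 (adjusted p = 0.0634), 2 (0.0717) or 3 (0.0869). Of 10 ES cell markers 3 fell (Tdgf1, Nanog and Sox2, by 0.35, 0.34 and 0.29). Of these calls 0 held without control replicate 1, without control replicate 2 or without control replicate 3, and 1 without overexpression replicate 2. Pou5f1 (0.19), Dppa5a (0.11) and Dppa4 (0.10) did not pass, but all their overexpression arrays lay above all control arrays. So groups were apart upward in 3 of the 10 ES cell markers and downward in 3, against 17.0% and 12.7% of all genes. The part of the markers of all these cell types in the changes of Thbs1 and Thbs3 was not tested.

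The calls of the 4 members were refitted under each alternative. Thbs1 passed in all of them, with differences from 2.54 (quantile normalization) to 2.68 (arrays centred on medians) and adjusted p from 3.36e-13 to 2.44e-05. Thbs4 passed in none, with differences from -0.21 to -0.10. Thbs3 and Thbs2 each crossed the threshold under some settings.

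**Figure D5:**
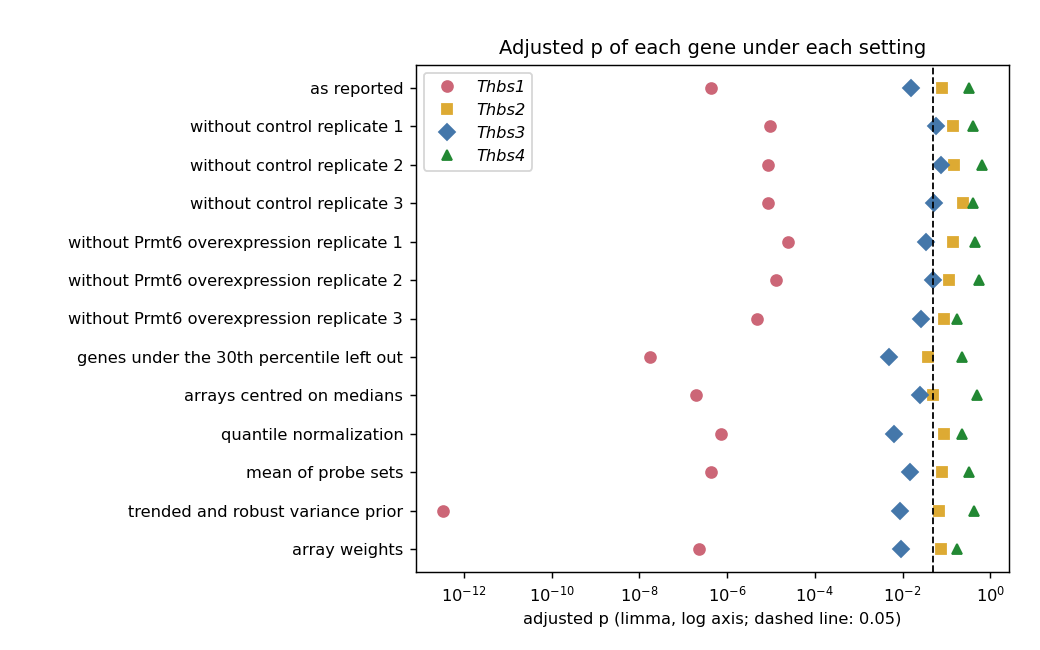
Adjusted p of each thrombospondin gene (log axis) under the reported fit and the settings named on the vertical axis, with a dashed line at 0.05. Thbs1 lies left of the line throughout and Thbs4 right of it, while Thbs3 crosses it when any 1 control array is left out, and Thbs2 crosses it when dim genes are left out and with arrays centred on medians.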

How the data were processed

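The deposited values are log2 signals made by RMA, per the submitters' processing notes, and were rounded to 2 decimals. RMA corrects background, equalizes arrays and summarizes the probes of a probe set, so a shift common to most genes is mostly lost. Software, version and genome build were not given in the sources used here. Detection calls were not used, so low values cannot be separated from background, and precision is limited by the number of arrays.

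Of 35556 probe sets, 21789 carried 1 symbol in the platform annotation of 2016, and for each of 19938 genes the brightest of these on average was kept. Of these probe sets, 21698 had a gene identifier in RefSeq (GRCm38.p6), and 91 had none there. The comparison used lmFit and eBayes of limma 3.58.1 under R 4.3.3 (two-sided, no covariates, no filter on low values). In simulated data with 200 changed genes, it recovered 8.8% of log2 changes of 0.3, 48.8% of 0.5 and 88.8% of 1. False calls were 5.59% of the calls. More genes were called in the real data (2052), so recovery there may differ, but small changes can be missed. P-values were adjusted over all genes, and errors of differences are SE. Lists are described by counts and medians, with no set test.

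The members, the lists and the alternatives were chosen with earlier results of these data known. Named genes were the members, up to 4 passing genes per list with the largest difference (or the smallest p), 2 neighbours per side and the 5 nearest profiles of each passing member. Genes named beyond this rule were chosen after their values were seen. The alternatives tried comprised a replicate block, omission of each array, a filter on dim genes, centring, quantile normalization, the mean of probe sets, other variance priors, array weights and a threshold of 0.01. Plots came from matplotlib 3.10.9 (Python 3.11.15).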

Additional observations from a re-analysis of the deposited data

How the results depend on the processing

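The labels do not say whether the replicate numbers pair the arrays. Same-numbered arrays deviated from their group means with correlations of -0.019, -0.016 and -0.12 over genes, and no array correlated best with its own number. Deviations from a mean of 3 arrays depend on each other, so these correlations cannot settle whether the arrays were paired. With the replicate block the Thbs3 difference stayed at -0.35 (adjusted p = 0.0524) and that of Prmt6 at 0.50 (adjusted p = 0.0615), neither called, falls over all genes numbered 383 against 647, and calls numbered 6 among bound matrix proteins and proteases, 3 among fibroblast markers, 1 among macrophage markers and 0 downward among ES cell markers. The pair differences between members kept their values, with an exact p of 0.25, the smallest that design allows. The cause of each shift below was not tested.

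At a threshold of 0.01 Thbs3 (-0.35, adjusted p = 0.0155) was not called, rises over all genes numbered 765 and falls 219, and calls numbered 6 for bound matrix, 2 for fibroblast markers, 1 for macrophage markers and 0 downward for ES cell markers. Thbs2 passed with dim genes left out (0.31) and with arrays centred on medians (0.36), where 5 TGF-beta ligand and latency genes rose, as under quantile normalization. Falls over all genes numbered 990 with dim genes left out, 1115 with the trended and robust prior, 1098 with array weights and 1245 under quantile normalization. Under these settings 1 TGF-beta ligand or latency gene fell, 1 to 2 matricellular genes fell, and 1 or 2 type 1 repeat genes fell except with the trended prior. TGF-beta receptor and response genes called lower were 2 under quantile normalization and 2 with the trended prior, with which 1 ES cell marker rose. Macrophage marker calls were 1 with array weights.

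Leaving out 1 array gave Thbs3 differences from -0.38 to -0.32. Over these fits rises over all genes numbered 862 to 1232 and falls 280 to 763, bound matrix calls 6 to 8, fibroblast marker calls 2 to 4, macrophage marker calls 1 to 2, ES cell marker falls 0 to 2, and falls among TGF-beta ligand and latency genes and among matricellular genes 0 to 1 each. The neighbours Gpr176 (-0.14 to 0.11), Mir92b (-0.068 to 0.032) and Wdr27 (-0.033 to 0.11) changed sign. Gpr176 was at 0.043 with arrays centred on medians, 0.019 under quantile normalization and 0.0036 with array weights, and Mir92b at 0.027 and 0.029 with centring and array weights. Low signals such as those of Thbs2, Thbs4 and Cd36 limit what small differences can show.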
